A study of Mus musculus with 6 samples.

Results

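The genes described here are the MAP kinase cascade genes and the dual-specificity phosphatase (Dusp) genes, with the ATAC-seq peaks that lie nearest to them in microglia lacking miR-137. Members are the protein-coding genes of the mm10 RefSeq table whose symbols begin with Map2k, Map3k, Map4k, Mapk or Dusp and a number, or with Mapkapk. There are 76 such genes among 21887 coding genes. A peak was assigned to one of them where its midpoint lay within 100 kb of an end of the gene and nearer to it than to an end of any other coding gene. There were 72 such peaks among the 12105 in the deposited lists, 11013 of which could be assigned to some coding gene.

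In a MAP kinase cascade, a MAP4K or a receptor complex activates a MAP3K, which phosphorylates a MAP2K, which in turn phosphorylates a MAP kinase of the ERK, JNK or p38 type. Dusp phosphatases remove the activating phosphates from MAP kinases, and many of the Dusp genes are themselves switched on by the pathway they restrain. In microglia and other macrophages these cascades carry signals from growth factors, Toll-like receptors and cellular stress to cytokine and growth genes.

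Chromatin accessibility was profiled by ATAC-seq, which reads open chromatin through insertions of the Tn5 transposase, in microglia sorted from brains of C57BL/6J mice labelled as 8 weeks old. The conditional knockout (cKO) carried Mir137 loxP/loxP with Tmem119-CreERT2, and the control (cWT) carried Mir137 +/+ with the same recombinase, so the tamoxifen-inducible Cre under Tmem119, a gene of microglia, and tamoxifen for 7 days from an age of 7 to 8 weeks, were common to both. There were 3 libraries of each genotype, from about 50000 cells each; the series states n = 4 mice without tying mice to libraries. The study asks which regulators become more active when miR-137 is lost. The deposited values are 1 list of cKO-specific peaks (8615) and 1 list of cWT-specific peaks (3490), with no values per library, so neither the spread between replicates nor the depth is known, and intervals below cover counting error between the 2 lists only. In such bulk libraries, fewer cells of a type and less open chromatin per cell cannot be told apart. Of 18 marker genes of microglia, 12 had a cKO-specific and 5 a cWT-specific peak, while Cx3cr1, Csf1r, Aif1, C1qa and Olfml3 had no specific peak. The lists hold only peaks deposited as specific to 1 genotype, so a marker without a peak here is not shown to be closed. Markers of vascular cells had a cKO-specific peak at 6 of 8 genes, astrocyte markers at 4 of 9, oligodendrocyte lineage markers at 4 of 9, neuronal markers at 3 of 10, markers of other macrophages at 3 of 10 and lymphocyte markers at 2 of 8. The cWT-specific counts of the same lists were 2, 2, 2, 2, 4 and 1 genes. For comparison, 22.5% of all coding genes had a cKO-specific and 11.4% a cWT-specific peak. The marker lists are short, and their counts were not tested against these shares. The part of cells other than microglia in the peaks below was not tested.

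Only 2 stretches of listed promoter sequence among these genes lay under a specific peak, both cKO-specific, and they are shown because the listed sequence there can be read together with a peak. Cover of the promoter by peaks is unknown for the 18 genes without a listed window. RefSeq promoter windows (250 bases before to 50 after an annotated start, GRCm38.p6) were at hand for 58 of the 76 genes, 74 windows in all. A specific peak overlapped 2 of the 74 windows (2.70%), against 1051 of 32851 windows of all genes (3.20%). The first belongs to Dusp16, which encodes a phosphatase that acts mainly on JNK (window chr6:134792579-134792878, minus strand). The second belongs to Mapk11, which encodes the p38 beta kinase (window chr15:89149557-89149856, minus strand). Both are printed from 5′ to 3′ along the gene's strand, with the bases under the cKO-specific peak in capitals.
Dusp16 promoter: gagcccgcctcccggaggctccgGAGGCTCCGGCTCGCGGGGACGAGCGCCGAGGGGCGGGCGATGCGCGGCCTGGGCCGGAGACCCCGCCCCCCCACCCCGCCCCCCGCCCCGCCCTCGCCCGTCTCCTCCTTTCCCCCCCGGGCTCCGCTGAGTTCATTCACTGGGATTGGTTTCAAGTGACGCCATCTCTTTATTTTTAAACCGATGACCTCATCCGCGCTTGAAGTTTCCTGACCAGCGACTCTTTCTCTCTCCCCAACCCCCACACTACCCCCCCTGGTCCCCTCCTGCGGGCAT
Mapk11 promoter: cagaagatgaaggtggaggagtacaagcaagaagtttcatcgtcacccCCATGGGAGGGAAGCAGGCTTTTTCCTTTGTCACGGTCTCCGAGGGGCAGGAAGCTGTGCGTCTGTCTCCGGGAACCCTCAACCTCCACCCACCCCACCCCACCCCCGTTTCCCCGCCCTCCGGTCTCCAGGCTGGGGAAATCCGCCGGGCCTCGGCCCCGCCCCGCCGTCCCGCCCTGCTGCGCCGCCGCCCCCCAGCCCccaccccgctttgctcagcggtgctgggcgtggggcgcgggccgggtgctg

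The Dusp16 peak (chr6:134792508-134792855) covered 277 of the 300 bases and its midpoint lay 53 bp before the listed start. Because that start lies inside the RefSeq gene span, 14382 bp from its nearer end by the peak's midpoint, the peak does not count as a gene-end peak below. The Mapk11 peak (chr15:89149608-89149808) covered 201 of the 300 bases, ended just before the start and had its midpoint 102 bp before it. Both windows are rich in G and C, at 68.7% for Dusp16 and 69.7% for Mapk11, against a median of 63.3% over the 74 windows of these genes and 52.7% over all windows. Neither peak stood out in the authors' values: the Dusp16 peak had a signal of 10.4 and a p-value of 0.768, and the Mapk11 peak a signal of 9.87 and a p-value of 0.932.

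Short motifs were looked for on both strands of these windows. The GC box GGGCGG, bound by Sp-type factors, occurred 5 times in the Dusp16 window and 4 times in the Mapk11 window. At least 1 copy stood in 45 of the 74 windows (60.8%) and in 35.7% of all windows. The 74 windows are richer in G and C than all windows (medians 63.3% and 52.7%). The part of this in the motif and seed-match shares was not tested. The AP-1 motif TGANTCA, bound by Fos and Jun proteins that MAP kinases phosphorylate or induce, was in 4 of 74 windows (5.41%, all windows 7.81%), those of Dusp13, Map2k6, Map2k7 and Map3k10. The cyclic AMP response element TGACGTCA was in 3 windows (4.05%, all windows 1.79%), those of Dusp1, Dusp8 and Mapk10. The ETS-type motif GGAAGTG was in 4 windows (5.41%, all windows 11.0%). The searched letters of these 3 motifs were in neither the Dusp16 nor the Mapk11 window. The motifs were chosen after a first look at the windows, and a match is a description of letters only.

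The 2 mature products of the deleted microRNA are given with bases 2 to 8, the seed, in capitals, because the seed decides which sequences a microRNA can pair with.
mmu-miR-137-3p: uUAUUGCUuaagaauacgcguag
mmu-miR-137-5p: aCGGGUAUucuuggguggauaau
The DNA letters that pair with the 3p seed are AGCAATA, and those for the 5p seed are ATACCCG. On either strand, 0 of the 74 windows held either, while AGCAATA stood in 2.16% and ATACCCG in 0.521% of all windows. Transcripts were not searched, and these windows are mostly DNA before the start. The count of 0 therefore cannot show whether miR-137 targets any of these genes.

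Of the 72 peaks, 57 were cKO-specific and 15 cWT-specific, so 79.2% were cKO-specific (exact Clopper-Pearson 95% interval 68.0 to 87.8%), against 71.7% of all assigned peaks. At least 1 cKO-specific peak fell to 32 of the 76 genes (42.1%), where the share over all coding genes was 22.5%. At least 1 cWT-specific peak fell to 11 of 76 (14.5%), beside 11.4% of all coding genes. Both kinds occurred at 8 genes (10.5%, all coding genes 5.95%). cKO-specific peaks alone occurred at 24 genes and cWT-specific peaks alone at 3. For 1 kind alone no share over all coding genes was taken, so these 2 counts are not read as a trait of the members. Genes with at least 3 peaks numbered 9 (11.8%, all coding genes 5.35%). Gene length moved with having a peak: the median span was 29.8 kb for the 35 members with a peak and 20.8 kb for the 41 without, and 32.3 kb against 13.2 kb over all coding genes. The median span of all 76 members was 21.2 kb, against 17.2 kb for all coding genes. Its part in the member counts was not tested.

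**Figure D1:**
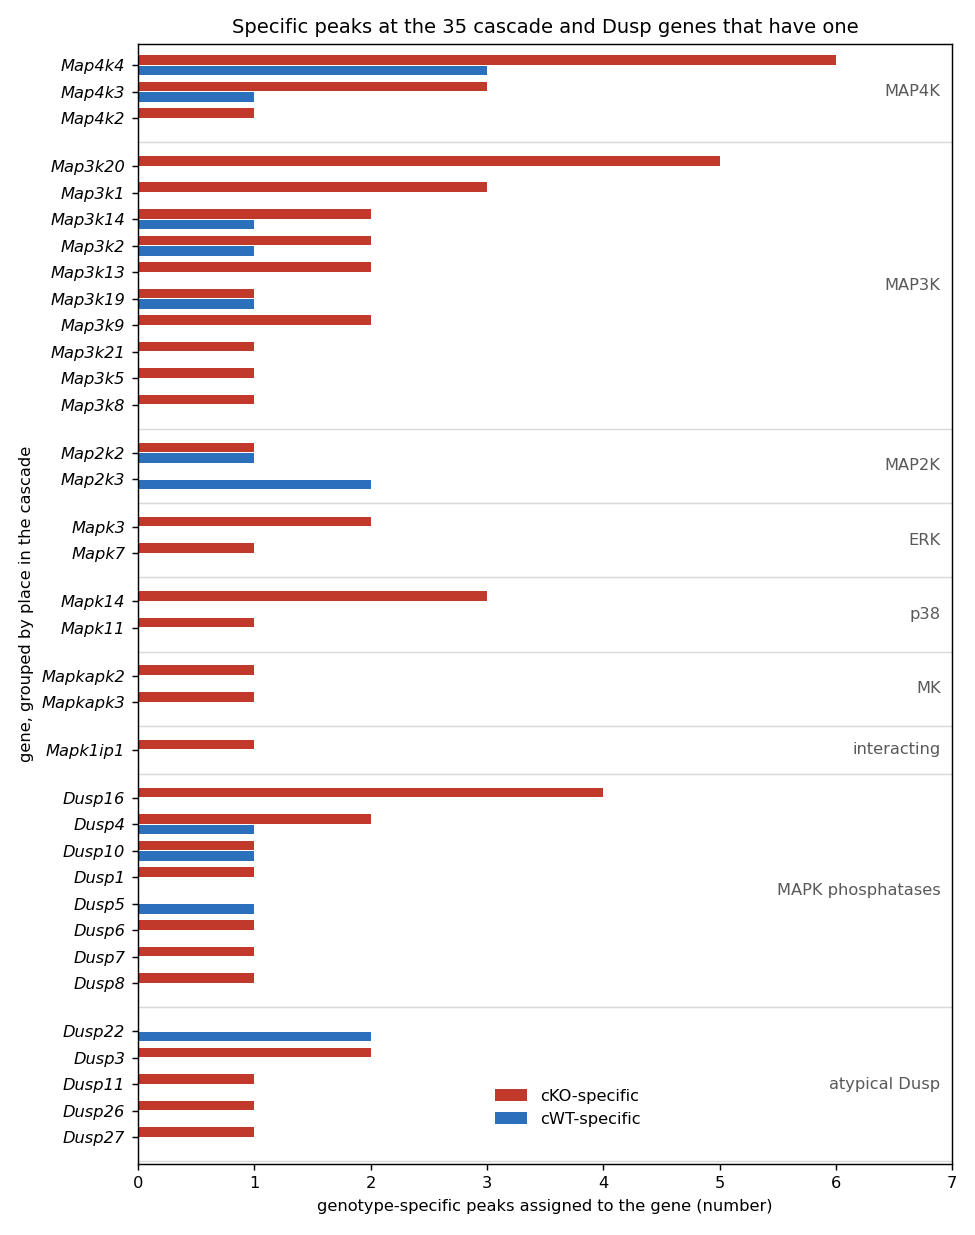
Number of genotype-specific peaks assigned to each of the 35 genes with at least 1 peak, by place in the cascade; for each gene the upper bar counts cKO-specific and the lower bar cWT-specific peaks. Map4k4 has 6 and 3, Map3k20 has 5 and 0, and Map2k3, Dusp5 and Dusp22 have cWT-specific peaks alone.

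By tier, the counts ran from 20 cKO-specific and 3 cWT-specific peaks at the 18 MAP3K genes to 0 and 0 at the 3 JNK genes. The 5 MAP4K genes held 10 cKO-specific and 4 cWT-specific peaks, at 3 and 2 of the genes. Among all coding genes, 22.5% had a cKO-specific and 11.4% a cWT-specific peak. With 5 genes these counts are small, and they were not tested against those shares. Map4k3 and Map4k4 are also long, at 148 and 125 kb, against a median of 17.2 kb for all coding genes. The part of gene length in the counts was not tested. Map4k4, a Ste20-type kinase upstream of JNK, carried 6 cKO-specific and 3 cWT-specific peaks, more than any other member. Its cKO-specific peaks lay at chr1:39916093-39916524 (signal 18.2, p-value 0.251), chr1:39918822-39919017 (signal 10.7), chr1:39962045-39962264 (signal 11.9), chr1:39962993-39963351 (signal 7.13), chr1:39978775-39979207 (signal 17.7) and, 11753 bp beyond the gene, chr1:40037910-40038216 (signal 10.8). Its cWT-specific peaks lay at chr1:39901332-39901695 (signal 9.94), which is 611 bp from an end of the gene, chr1:39979181-39979448 (signal 16.8, p-value 0.502) and chr1:39996233-39996966 (signal 10.3). The cWT-specific peaks stood before or among the cKO-specific ones, and the pair at 39978775 and 39979181 overlapped by 27 bp. In the cKO list's own numbering, 6 of the 13 peaks numbered from the first to the last of these were listed as specific.

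Map4k3, whose product GLK acts in T-cell signalling and nutrient sensing, had 3 cKO-specific peaks and 1 cWT-specific peak. The cKO-specific peaks were 30065 bp from the gene's end inside it (chr17:80698408-80699075, signal 16.9), and outside it at 6093 bp (chr17:80734798-80735001, signal 10.5) and 43871 bp (chr17:80772558-80772797, signal 19.0). The cWT-specific peak lay inside the gene, 10124 bp from the end (chr17:80718348-80719016, signal 8.74). Map4k2 had 1 cKO-specific peak inside the gene (signal 17.9), and no peak was assigned to Map4k1 or Map4k5.

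The MAP3K tier had 20 cKO-specific and 3 cWT-specific peaks. Of its 18 genes, 10 had a cKO-specific peak (55.6%, all coding genes 22.5%) and 3 a cWT-specific peak (16.7%, all coding genes 11.4%). Map3k20, the gene of ZAK, a kinase of the ribosome stress response, had 5 cKO-specific and 0 cWT-specific peaks, all inside the gene. One (chr2:72286326-72286666, signal 18.0, p-value 0.840) lay 795 bp after a listed start and 859 bp from the gene's end. The others were 12923 bp (chr2:72298366-72298754, signal 17.6), 66495 bp (chr2:72375910-72376320, signal 8.15), 63231 bp (chr2:72379271-72379488, signal 17.8) and 52563 bp (chr2:72389803-72390292, signal 24.3, p-value 0.596) from an end. These 5 were among 10 consecutively numbered cKO peaks. Map3k1, the gene of MEKK1, which acts upstream of JNK and ERK, had 3 cKO-specific peaks and 0 cWT-specific peaks. They were 3 consecutive peaks of the cKO numbering within 2.27 kb, at chr13:111805299-111805548 (signal 13.8, p-value 0.501), chr13:111805812-111806184 (signal 13.7) and chr13:111807210-111807570 (signal 8.84). Their midpoints lay 1603 to 3570 bp after a listed start, and the first 2 were only 263 bp apart.

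Map3k14 encodes NIK, the kinase that drives the non-canonical NF-kB pathway, and had 2 cKO-specific peaks and 1 cWT-specific peak. The cKO-specific peak with the higher signal lay outside the gene, 14896 bp before the listed start (chr11:103282167-103282428, signal 34.0, p-value 0.404). The other was inside it, 9300 bp after the start (chr11:103257951-103258252, signal 18.7), and the cWT-specific peak stood 122 bp from this one (chr11:103258375-103258581, signal 17.1). Map3k2 (MEKK2) had 2 cKO-specific peaks (chr18:32184107-32184396, signal 20.4, and chr18:32197760-32198119, signal 23.6) and 1 cWT-specific peak (chr18:32204819-32205282, signal 20.2), all inside the gene. Map3k9, a mixed-lineage kinase gene, had 2 cKO-specific peaks, 1 of them 7331 bp before the listed start with a signal of 36.4 and a p-value of 0.384 (chr12:81788315-81788688). Map3k13, the gene of the related kinase LZK, had 2 cKO-specific peaks inside it (signals 27.4 and 20.2). A single cKO-specific peak was found at Map3k5, the gene of the stress kinase ASK1 (signal 24.9, 57982 bp from the gene's end), at Map3k21 (signal 21.2) and at Map3k8, the gene of Tpl2, which links Toll-like receptors to ERK in macrophages (signal 19.5, 28406 bp away). Map3k19 had 1 peak of each kind, with signals of 14.5 in the cKO list and 9.02 in the cWT list. No peak was assigned to Map3k3, Map3k4, Map3k6, Map3k7, Map3k10, Map3k11, Map3k12 or Map3k15; Map3k7 encodes TAK1, the MAP3K that Toll-like and interleukin-1 receptors use.

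**Figure D2:**
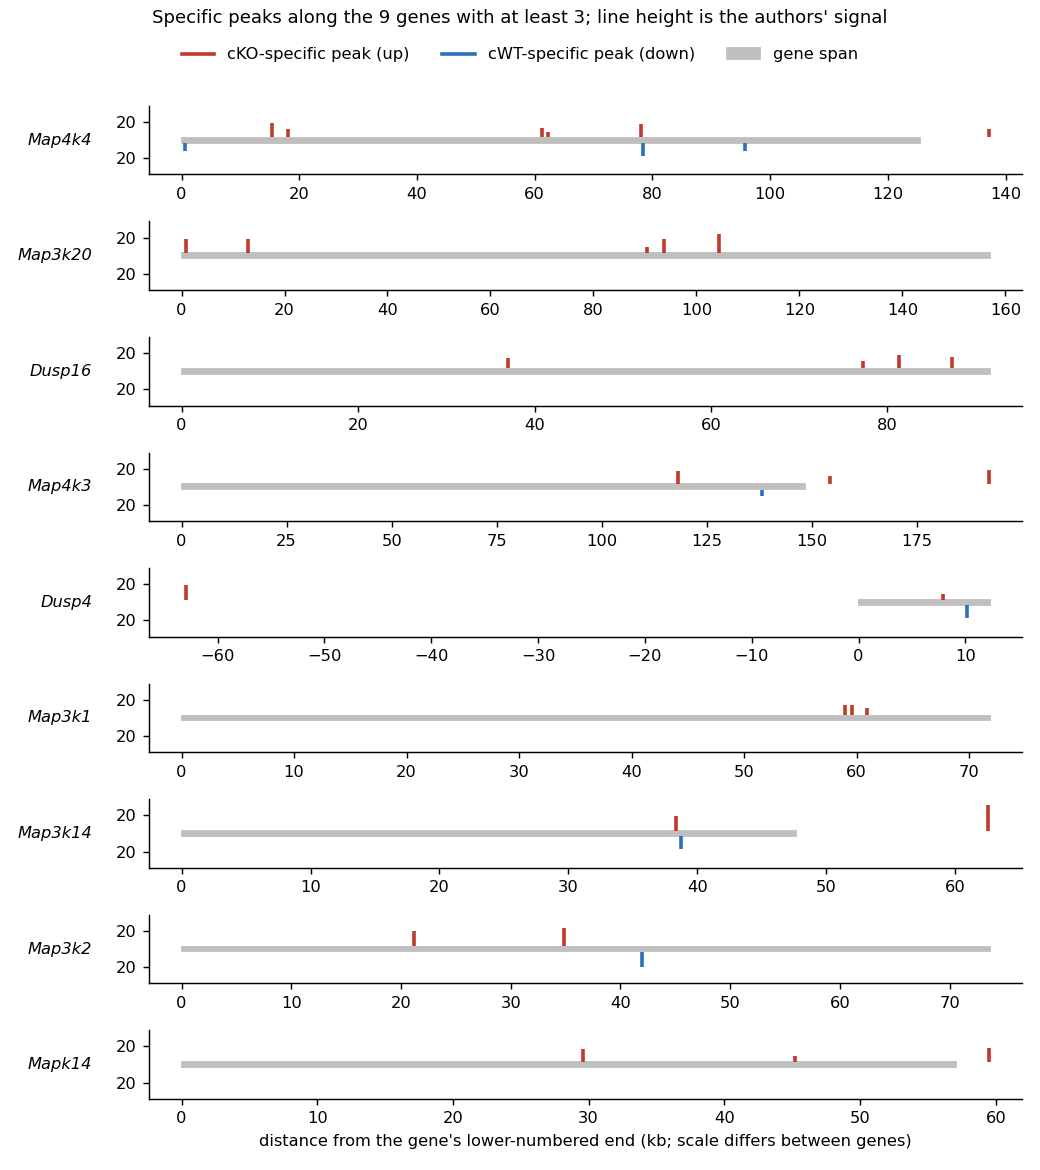
Specific peaks along the 9 genes with at least 3 of them; the x axis is the distance in kb from the lower-numbered end of each gene, the grey bar is the gene, cKO-specific peaks point up and cWT-specific peaks down, and line height is the authors' signal (axis mark at 20). Map3k1's 3 cKO-specific peaks stand close together, while those of Map4k4 and Map3k20 are spread along the gene.

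The MAP2K tier had 1 cKO-specific and 3 cWT-specific peaks over 7 genes. Map2k3, which encodes an activator of p38, carried 0 cKO-specific and 2 cWT-specific peaks. Both lay outside coding genes, 10068 and 27206 bp from Map2k3, with signals of 9.10 and 8.39. Map2k2, which encodes MEK2 of the ERK branch, had 1 peak of each kind side by side, a cKO-specific one (chr10:81129389-81129638, signal 20.0) and a cWT-specific one (chr10:81129026-81129372, signal 16.3) separated by 16 bp. That pair lay about as near to Zbtb7a as to Map2k2, 5712 against 4816 bp for the cKO-specific peak and 6026 against 4502 bp for the cWT-specific peak. The remaining 5, Map2k1, Map2k4, Map2k5, Map2k6 and Map2k7, had no assigned peak. Map2k1 did hold specific peaks of both lists inside it, but these were nearer to an end of Uchl4 and are not in the tier's counts.

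The 13 MAP kinase genes held 7 cKO-specific and 0 cWT-specific peaks, at 4 of the genes (30.8%). Over all coding genes, 22.5% had a cKO-specific and 11.4% a cWT-specific peak. Mapk14, the gene of p38 alpha, the main p38 kinase of inflammatory cells, had 3: 2 inside it at 27459 bp (chr17:28720833-28721059, signal 17.1) and 11831 bp (chr17:28736412-28736737, signal 7.15) from its end, and 1 beyond it at 2404 bp (chr17:28750718-28750900, signal 17.6). Mapk11 had the promoter peak printed above. Mapk3, the gene of ERK1, had 1 peak inside it, 876 bp from an end (chr7:126760222-126760783, signal 8.28, p-value 0.957), and 1 outside at 4684 bp (signal 16.1). Mapk7, the gene of ERK5, had 1 peak 5164 bp from the gene's end and 5713 bp from B9d1 (signal 11.7). The 3 JNK genes Mapk8, Mapk9 and Mapk10 had no assigned peak of either list, nor did the p38 genes Mapk12 and Mapk13. With 15 cWT-specific peaks over all 76 genes, a count of 0 at these 13 is a small-number description.

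Among kinases that p38 activates, Mapkapk3 had 1 cKO-specific peak (chr9:107279926-107280701, signal 22.8, p-value 0.355), 9564 bp from the gene's end and inside it. Mapkapk2, whose product MK2 stabilises cytokine mRNAs, had 1 cKO-specific peak 2021 bp after its listed start (chr1:131095716-131095928, signal 9.90, p-value 0.825). Mapkapk5 had none. Of the MAP kinase-interacting proteins, Mapk1ip1 had 1 cKO-specific peak 7823 bp away (signal 9.80), and Mapk8ip1, Mapk8ip2 and Mapk8ip3, which encode JNK scaffolds, had none, nor did Mapk1ip1l or the kinase-like gene Map3k7cl.

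The 24 Dusp genes held 16 cKO-specific and 5 cWT-specific peaks. cKO-specific peaks lay at 11 genes (45.8%, all coding genes 22.5%) and cWT-specific peaks at 4 (16.7%, all coding genes 11.4%). Among the 10 encoding MAP kinase phosphatases proper, 7 had a cKO-specific (70.0%) and 3 a cWT-specific peak (30.0%). Dusp16 led with 4 cKO-specific and 0 cWT-specific peaks, all inside the gene: the promoter peak above, 2 consecutively numbered ones before the listed start at chr6:134796660-134796912 (signal 17.0, p-value 0.616) and chr6:134802667-134802947 (signal 14.5), and 1 far after it at chr6:134752356-134752572 (signal 14.2). Dusp4, the gene of a nuclear ERK phosphatase, had 2 cKO-specific peaks, 62971 bp outside the gene (chr8:34744235-34745043, signal 19.3) and 4340 bp from its end inside it (chr8:34815441-34815668, signal 7.07), and 1 cWT-specific peak inside it 2099 bp from the end (chr8:34817610-34817980, signal 16.2). Dusp10, the gene of a JNK and p38 phosphatase, had 1 peak of each kind 8 bp apart inside it, cKO-specific at chr1:184066688-184066982 (signal 22.4) and cWT-specific at chr1:184066991-184067243 (signal 19.2).

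Dusp1, whose product limits p38 and JNK after Toll-like receptor signals, had 1 cKO-specific peak 2477 bp beyond the gene's end (chr17:26502939-26503289, signal 7.38, p-value 0.840). Dusp6, whose product holds back ERK in the cytoplasm, had 1 cKO-specific peak 34789 bp away (chr10:99301965-99302592, signal 29.1, p-value 0.376). Dusp7 and Dusp8 had 1 cKO-specific peak each (signals 25.4 and 10.7), and Dusp5, the gene of a nuclear ERK phosphatase, had 1 cWT-specific peak 21472 bp before its start (signal 15.7). No peak was assigned to Dusp2 or Dusp9.

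Of the 14 atypical Dusp genes, many of whose products act on varied substrates, 4 had a cKO-specific (28.6%) and 1 a cWT-specific peak (7.14%). These shares were near those of all coding genes, 22.5% and 11.4%. Dusp11, which encodes an RNA 5′ phosphatase and not a MAP kinase phosphatase, had the cKO-specific peak with the lowest p-value of all 72, 614 bp before its listed start and 549 bp from the gene's end (chr6:85962125-85962437, signal 35.1, p-value 0.0800, adjusted p 0.678 in the authors' deposited table). Dusp27 had the next lowest, 7556 bp from the gene's end inside it (chr1:166105400-166106008, signal 30.2, p-value 0.180). These were the only 2 of the 57 cKO-specific peaks that the authors named primary (3.51%, all cKO-specific peaks 2.82%). Dusp3, whose product VHR acts on ERK and JNK, had 2 cKO-specific peaks inside it, near the end away from its listed start, at chr11:101971503-101972109 (p-value 0.759) and chr11:101972122-101972440 (p-value 0.263). They were 12 bp apart and carried the same signal of 37.3, the highest of the 72, so they may be parts of 1 region. Dusp26 had 1 cKO-specific peak 140 bp outside an end of the gene (chr8:31097054-31097318, signal 20.4). Dusp22, whose product acts in JNK and T-cell receptor signalling, carried 0 cKO-specific and 2 cWT-specific peaks, at 15159 bp inside the gene (signal 12) and 17004 bp outside it (signal 10.7). The peak outside lay 20997 bp from Irf4. Dusp12, Dusp13, Dusp14, Dusp15, Dusp18, Dusp19, Dusp21, Dusp23 and Dusp28 had no assigned peak.

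Most of these peaks lay away from gene ends and inside the genes. Within 1000 bp of a gene end there were 6 of 57 cKO-specific peaks (10.5%, exact 95% interval 3.96 to 21.5%), those of Mapk11, Dusp26, Dusp11, Dusp3, Map3k20 and Mapk3, and 1 of 15 cWT-specific peaks (6.67%, 0.169 to 31.9%), that of Map4k4. Over all assigned peaks the shares were 15.0% in cKO and 17.8% in cWT, both inside these intervals. Inside the assigned gene lay 37 cKO-specific peaks (64.9%, 51.1 to 77.1%, all assigned 56.0%) and 9 cWT-specific peaks (60.0%, 32.3 to 83.7%, all assigned 57.2%). The other 20 and 6 lay outside all coding genes, and whether they lay in noncoding genes was not counted. The median distance to the gene's end was 11753 bp in cKO (102 to 66495 bp) and 10124 bp in cWT (611 to 46996 bp), beside 10500 and 11607.5 bp for all assigned peaks. Peak widths had medians of 339 and 347 bp, beside 314 and 321.5 bp.

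The authors' own values put few of these peaks forward. No source used here says what their p-value tests. It was at most 0.5 at 8 of 57 cKO-specific peaks (14.0%, all cKO-specific peaks 12.1%) and at 0 of 15 cWT-specific peaks (all cWT-specific peaks 6.16%), where a count of 0 in 15 allows up to 21.8% (exact 95% interval). The 8 were at Dusp11, Dusp27, Map4k4, Dusp3, Mapkapk3, Dusp6, Map3k9 and Map3k14, 1 each. Just outside this limit stood Map3k1 at 0.501 in cKO and Map4k4 at 0.502 in cWT. The adjusted p in the authors' deposited table was at least 0.678 for every one of the 57 cKO-specific peaks and 0.981 for the 15 cWT-specific peaks. Signal medians were 17.6 in cKO (7.07 to 37.3) and 12 in cWT (8.39 to 20.2), beside 16.6 and 13.7 over all assigned peaks; the scale of the signal is not stated, so the lists are not compared by it.

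**Figure D3:**
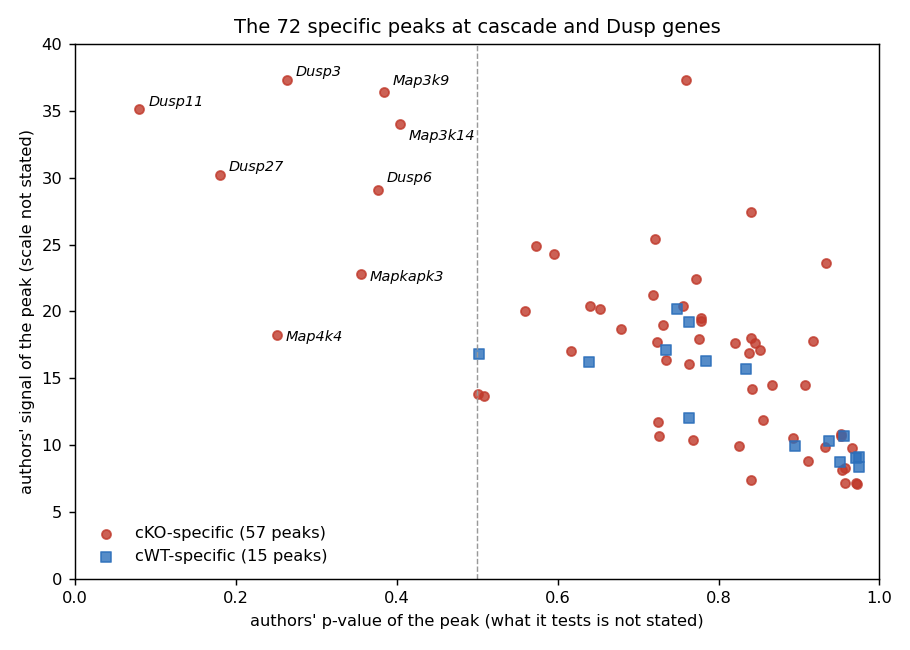
Authors' signal (y axis, scale not stated) against authors' p-value (x axis) for each of the 57 cKO-specific (circles) and 15 cWT-specific (squares) peaks; the dashed line marks a p-value of 0.5 and the 8 peaks left of it are named by gene. All 8 are cKO-specific, and Dusp11 has the lowest p-value, 0.0800.

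At 4 genes a cKO-specific and a cWT-specific peak were neighbours. Of the 15 cWT-specific peaks, 4 (26.7%, exact 95% interval 7.79 to 55.1%) had a cKO-specific peak within 500 bp, those of Map4k4 (an overlap of 27 bp), Dusp10 (8 bp apart), Map2k2 (16 bp) and Map3k14 (122 bp). Over all 3490 cWT-specific peaks it was 369 (10.6%), which lies within that interval. Each such pair adds 1 to both lists.

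**Figure D4:**
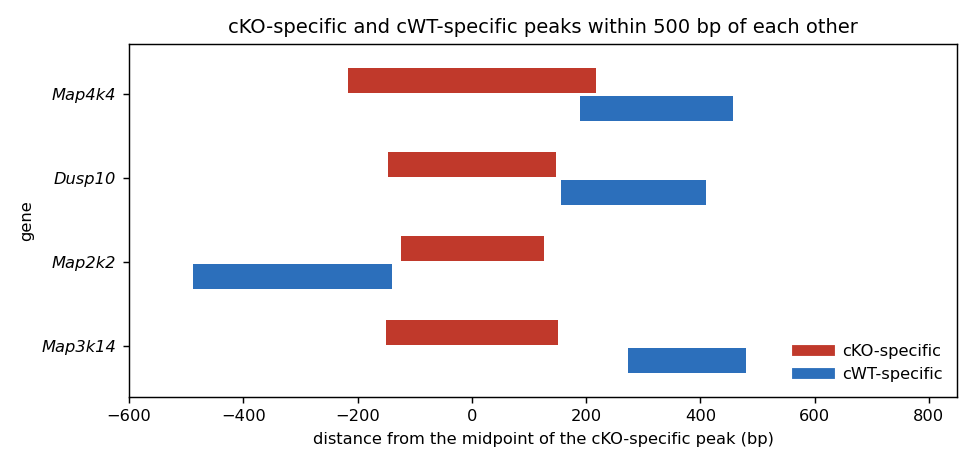
Extent of the 4 pairs of neighbouring peaks, drawn as distance in bp from the midpoint of the cKO-specific peak; the upper bar of each pair is cKO-specific and the lower cWT-specific. The pair at Map4k4 overlaps by 27 bp and the others are 8, 16 and 122 bp apart.

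Whether single genes departed from the balance of the lists was tested for every coding gene with at least 5 peaks, by an exact two-sided binomial test against the cKO share of 71.7%, with Benjamini-Hochberg adjustment over 271 genes. By this test 0 of 271 genes (0%) passed, and 6 had an unadjusted p under 0.05, none of them a member. Only 2 members had enough peaks. Map4k4 had 66.7% cKO-specific peaks (6 of 9, interval 29.9 to 92.5%, exact p = 0.719, adjusted p = 1.0), and Map3k20 had 100% (5 of 5, interval 47.8 to 100%, exact p = 0.331, adjusted p = 1.0). A gene with up to 9 peaks, all cKO-specific, cannot pass this test, so it could not show a cKO excess at either member.

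The wider pathway was described by 61 genes outside the symbol rule, all annotated as coding. Of these, 29 (47.5%) had a cKO-specific and 13 (21.3%) a cWT-specific peak, with 48 and 17 peaks, beside 22.5% and 11.4% of all coding genes. The 72 marker genes of the cell types named above had such peaks at 34 (47.2%) and 18 (25%), about as often as the pathway genes. Ksr1, a scaffold of the Raf kinases, had 2 cKO-specific and 0 cWT-specific peaks. Tab2, a partner of TAK1, had 4 and 0, and Traf6 1 and 0, in a list with cKO-specific peaks at 2 of 5 genes and cWT-specific peaks at 0. Of the 5 Ste20-like kinase genes, 3 had a cKO-specific and 3 a cWT-specific peak, among them Taok1 with 3 and 1. The adaptor gene Grb2 had 1 and 1. Rps6ka3, a kinase activated by ERK, had 2 and 0, in a list of 8 genes with cKO-specific peaks at 3 and cWT-specific peaks at 0. The transcription factor substrates had cKO-specific peaks at 8 of 13 genes and cWT-specific peaks at 3, led by Mef2c (3 and 3), Ets1 (3 and 0) and Fos (2 and 1). Of the 7 Sprouty and Spred genes, whose products restrain the pathway, 2 had peaks of both kinds, Spred2 with 2 and 3 and Spred1 with 2 and 1, while Spred3 and the Sprouty genes had none. The MAP kinase tyrosine phosphatase genes Ptpn7 (2 and 0), Ptpn5 and Ptprr (1 and 0 each) all had a cKO-specific peak, and the JNK scaffold gene Spag9 had 3 and 1, in a list of 7 other scaffolds with cKO-specific peaks at 4 and cWT-specific peaks at 2.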

How the data were processed

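The submitters' processing notes name HOMER 4.11, MACS2 2.2.7.1 and Bowtie2 2.4.4, and the builds GRCm38 and mm10. Not given in the sources used here are each tool's step, any shift for Tn5, the pooling of replicates and the rule that made a peak specific. The authors deposited 1 headerless list per genotype that gives each peak's signal, score, p-value and its adjusted form; these readings rest on layout and values. Libraries were grouped by title. A longer list can come from deeper or cleaner libraries, and depth is unknown.

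Gene spans came from RefSeq GRCm38.p6 (chromosomes 1 to 19, X and Y). A peak was given to the coding gene whose end lay nearest its midpoint, within 100 kb. Gene-end peaks lie within 1000 bp. Promoter windows and microRNAs are RefSeq's. Position from a start uses the nearest listed start of the gene. Shares have exact 95% intervals. The balance test was also run on simulated counts in which either most genes or none departed from the shared cKO share. A lone departing gene was not simulated. Some genes of the lists are not reported here by name. Members and gene lists were chosen with earlier results of these data known. Positions are given for genes with 3 or more peaks, a gene-end peak or a p-value up to 0.5, and for some others chosen after their values were seen. Python 3.11.15, numpy 2.4.6, pandas 2.3.3, scipy 1.17.1 and matplotlib 3.10.9 were used.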

Additional observations from a re-analysis of the deposited data

How the results depend on the processing

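Counts fell with stricter choices by construction. With assignment limited to 10 kb, 26 cKO-specific and 6 cWT-specific peaks were left, with cWT-specific peaks at 6 genes; the median distance was then 4512 bp in cKO and 4410.5 bp in cWT, and in cKO 23.1% lay at gene ends and 50% inside the gene. With nearest ends taken among all annotated genes, 31 cKO-specific peaks at 21 genes were left, from 57 at 32 in the main run. The cWT-specific counts changed less, to 12 peaks at 9 genes from 15 at 11. The cKO share was thus lower there than the 79.2% of the main run, which leaves out noncoding genes. The share over all peaks under that choice is not given here, so the 2 runs are not compared further. At or above the list's median score there were 32 and 8 peaks, with 0% of the cWT-specific ones at gene ends. At p-values up to 0.5 there were 8 cKO-specific peaks at 8 genes, 50% of them inside the gene, and 0 cWT-specific peaks at 0 genes. In all, 56 of 73 values stayed within 1.5 times a count, or within the interval of a share or median. They include the cWT-specific counts among all annotated genes. They also cover counting peaks inside members, merging peaks within 500 bp, leaving out peaks that overlap the other list and a 3000 bp gene-end window. Merging left 55 cKO-specific peaks and leaving out overlaps left 56, from 57, so those runs could hardly move the values. The 56 values also take in the balance test's count of 0 genes in each alternative run. The tally is therefore no measure of how robust the results are. The balance test called 0 genes in each alternative run, but it covered only 9 genes at the 10 kb limit and 1 gene at p-values up to 0.5, with 0 members in both, so those runs say nothing about the members. No paired analysis was possible because values per library are not in the lists, and for that reason no replicate could be left out.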

Other observations

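The 100 kb limit leaves out a run of cKO-specific peaks whose nearest coding gene is Dusp6, the ERK phosphatase gene. Beyond its assigned peak, 6 further cKO-specific peaks lay 113 to 176 kb from the gene, from chr10:99380070 to 99443989, with signals of 8.46 to 26.0 and p-values of 0.578 to 0.949. They were 6 of 9 consecutively numbered cKO peaks, directly after the assigned one, and no cWT-specific peak was nearest to Dusp6 at any distance. The last lay 74 bp from an end of the pseudogene Gad1-ps. Map3k1 likewise had 3 more cKO-specific peaks 112 to 162 kb away, the nearest with a signal of 27.5 and a p-value of 0.324 (chr13:111929776-111930444). Over all members 11 cKO-specific peaks and 1 cWT-specific peak lay beyond the limit, of 716 and 376 in the lists. The cWT-specific one was inside Map3k5, 102594 bp from its end and just past the limit. These were chosen after their values were seen and were not tested.

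Some peaks inside a member gene were nearer to another gene's end. Map2k1, the gene of MEK1, held 2 cKO-specific peaks (chr9:64216175-64216777, signal 14.7, and chr9:64222131-64222403, signal 13.2) and 1 cWT-specific peak (chr9:64227711-64228071, signal 11.7), all assigned to Uchl4. Map3k3 held a cKO-specific peak with a signal of 31.3 and a p-value of 0.161 (chr11:106122737-106123094), assigned to Limd2, and Map4k5 held one with a signal of 13.3, assigned to Atl1. Dusp15 held a cWT-specific peak with a signal of 11.4, assigned to Ttll9.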
